A study of Mus musculus with 2 samples.

Results

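The transcripts of the mouse insulin genes Ins2 and Ins1 and of Iapp, the gene of islet amyloid polypeptide, were described in pancreatic islets of CAST/EiJ (CAST) and C57BL/6J (B6) mice. The 3 genes were taken by name from 38924 genes with deposited values. CAST was inbred from wild castaneus mice, and the reference genome was built from B6, a common laboratory strain. All mice were males of 10 weeks on standard chow, with no transgene or treatment named in the labels. Islets, small clusters of hormone-making cells in the pancreas, of 2 CAST mice and, separately, of 2 B6 mice were pooled. Of each pool 250 islets went to RNA sequencing, and the remaining 470 CAST and 400 B6 islets went to protein analysis. Islets were held in buffer with 16.7 mM glucose during purification, per the labels. Each strain had 1 library, of 104324631 expected counts in CAST and 76600903 in B6, so no spread between mice can be estimated and no difference was tested. The RNA-seq accompanied a protein database search for modified peptides.

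Insulin is made in beta cells as a precursor that folds in the endoplasmic reticulum, where disulfide bonds form, and is cut in the secretory granule to insulin and C-peptide. Mice carry a pair of insulin genes. Ins2 is the ancestral gene, and Ins1 is a copy that arose by retroposition in the rodent lineage and lacks the second intron. Iapp encodes amylin, a peptide hormone that beta cells store and release together with insulin; the human peptide forms amyloid in islets in type 2 diabetes, whereas the mouse peptide does not.

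Ins2 (ENSMUSG00000000215) is annotated on the reverse strand of chromosome 7 from 142678656 to 142743381, Ins1 (ENSMUSG00000035804) on the forward strand of chromosome 19 from 52264297 to 52265476, and Iapp (ENSMUSG00000041681) on the forward strand of chromosome 6 from 142298423 to 142303961 (GRCm38, GENCODE M21). The coding sequences of the main transcript of each insulin gene are printed from GENCODE M21 (Ins2-204 is ENSMUST00000105932 and Ins1-201 is ENSMUST00000039652; Ins2 bases 1 to 300 of 333 and the Ins1 bases 1 to 294 of 327 that align to them), because their likeness sets how well reads of the genes can be told apart. Capitals mark bases that differ between them or are present only in Ins2.
Ins2-204: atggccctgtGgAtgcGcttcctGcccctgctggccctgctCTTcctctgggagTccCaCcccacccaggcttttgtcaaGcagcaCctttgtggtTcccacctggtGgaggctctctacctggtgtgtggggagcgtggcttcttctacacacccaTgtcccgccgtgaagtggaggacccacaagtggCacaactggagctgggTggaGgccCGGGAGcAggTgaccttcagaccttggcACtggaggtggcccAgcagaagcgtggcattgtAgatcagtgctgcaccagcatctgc
Ins1-201: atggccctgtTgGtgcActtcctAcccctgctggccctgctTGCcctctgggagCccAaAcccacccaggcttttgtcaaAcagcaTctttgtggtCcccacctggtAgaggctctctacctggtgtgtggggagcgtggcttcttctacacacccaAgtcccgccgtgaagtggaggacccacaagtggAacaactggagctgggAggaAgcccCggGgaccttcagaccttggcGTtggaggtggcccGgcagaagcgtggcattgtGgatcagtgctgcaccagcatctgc
Over the whole coding sequences 302 of 327 aligned bases were identical (92.4%), and Ins2 had 6 bases more; 24 of the 25 mismatches and all 6 extra bases lie in the stretch shown. Of the 25 mismatches 7 fell on the first, 6 on the second and 12 on the third base of a codon. The longest stretch without a difference was 56 bases. Of the 406 windows of 50 bases in Ins2-204 7 were also present in Ins1-201, and of its windows of 75 bases 0 were. Windows of 50 bases from Ins2, Ins1 or Iapp were found 0 times in the annotated transcripts of other genes, on either strand. Exact matches of 75 bases would thus point to a single insulin gene. Read length and the mismatches allowed in alignment were not given in the sources used here. Variants of CAST against the B6 reference can cost CAST reads, and their effect on these genes was not tested.

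Of all genes Ins2 had the highest level in each library. Ins2 had 477729 TPM (the share of all transcript molecules scaled to a sum of 1000000, a level per length) in CAST and 404421 TPM in B6, which is 47.8% and 40.4% of all transcripts. Ins1 had 55376 TPM in CAST and 54369 TPM in B6, or 5.54% and 5.44%. Iapp had 22355 TPM in CAST and 28752 TPM in B6, or 2.24% and 2.88%. On this scale Ins2 was higher in CAST, Ins1 was nearly level and Iapp was lower in CAST. Ins1 had rank 2 in CAST and rank 3 in B6, where the glucagon gene Gcg came before it (38004 TPM in CAST and 62906 TPM in B6). Iapp had rank 4 in both libraries. The next gene by TPM was Scg2, a granin gene, in CAST (6554 TPM in CAST and 2894 TPM in B6) and Chga, another granin gene, in B6 (4043 TPM in CAST and 8787 TPM in B6).

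**Figure D1:**
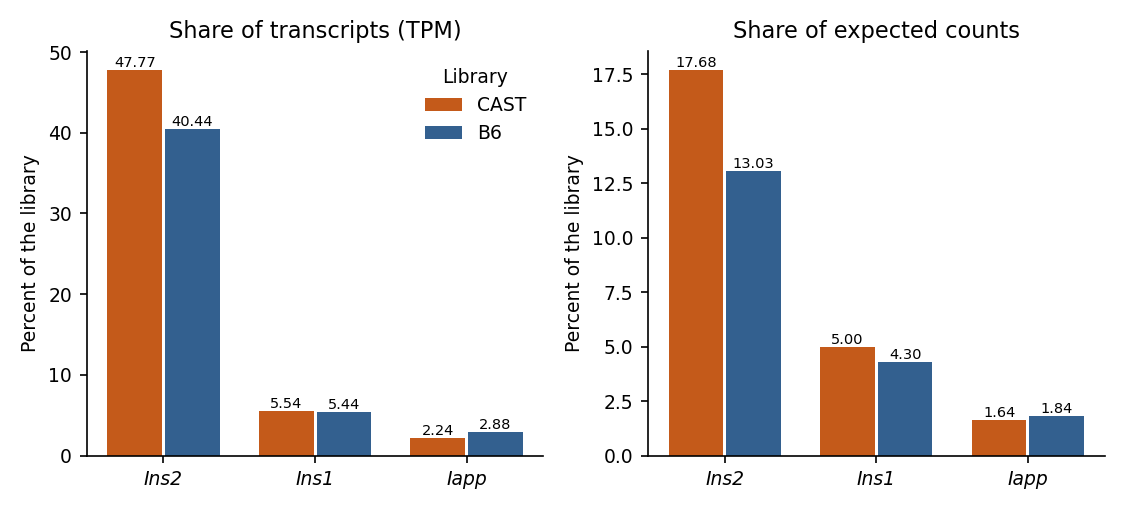
Share of each library held by Ins2, Ins1 and Iapp, in percent of transcripts (TPM, left) and in percent of expected counts (right), with CAST left of B6 for each gene and 1 library per strain. Ins2 stands at 47.8% of transcripts in CAST and 40.4% in B6, while Iapp is the gene that is lower in CAST on both scales.

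Together the 3 genes held 55.5% of transcripts in CAST and 48.8% in B6. The difference was 6.79 percentage points, made up of 7.33 points for Ins2, 0.10 for Ins1 and -0.64 for Iapp. By expected counts, where long transcripts weigh more, they held 24.3% in CAST (exact Clopper-Pearson 95% interval 24.31 to 24.33) and 19.2% in B6 (19.16 to 19.18). These intervals and those that follow are for counting error only, since 1 library per strain gives no spread between mice. They treat reads as independent. Reads without molecular identifiers are not independent molecules, so the intervals may be too narrow even for counting error. In a bulk library more cells of a type and more RNA per cell cannot be told apart.

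Counts were scaled between the libraries with TMM factors, which set the bulk of genes level. Ins2 had 18448026 counts in CAST and 9982259 in B6, a log2 ratio of CAST over B6 of 0.60 (95% interval 0.60 to 0.60), or 1.51-fold. Ins1 had 5217941 counts in CAST and 3294457 in B6, a log2 ratio of 0.37 (0.37 to 0.38), or 1.30-fold. Iapp had 1706731 counts in CAST and 1409667 in B6, a log2 ratio of -0.013 (-0.016 to -0.0099). Both insulin genes thus had more scaled counts in CAST, whereas Iapp had a ratio of 0.991. None of the 3 genes was 2-fold apart, whereas 7.18% of the 14768 genes with at least 100 counts exceeded 2-fold towards CAST and 5.99% towards B6. Ins2 alone passed 1.5-fold, as did 12.4% of all genes in that direction. The log2 ratio of Ins2 lay above that of 87.9% of these genes, that of Ins1 above 80.7% and that of Iapp above 47.2%.

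The size of these ratios depended on the scale, which also shifts all other genes. Over all 14768 genes the median was log2 0.02 under TMM scaling, -0.14 with total counts and -0.26 by TPM. Relative to that median, Ins2 lay 0.58 higher in counts, where the distance is the same by construction for every scaling factor, and 0.50 higher by TPM. Ins1 lay 0.36 higher in counts and 0.29 higher by TPM. Iapp lay at -0.031 in counts and -0.0995 by TPM.

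**Figure D2:**
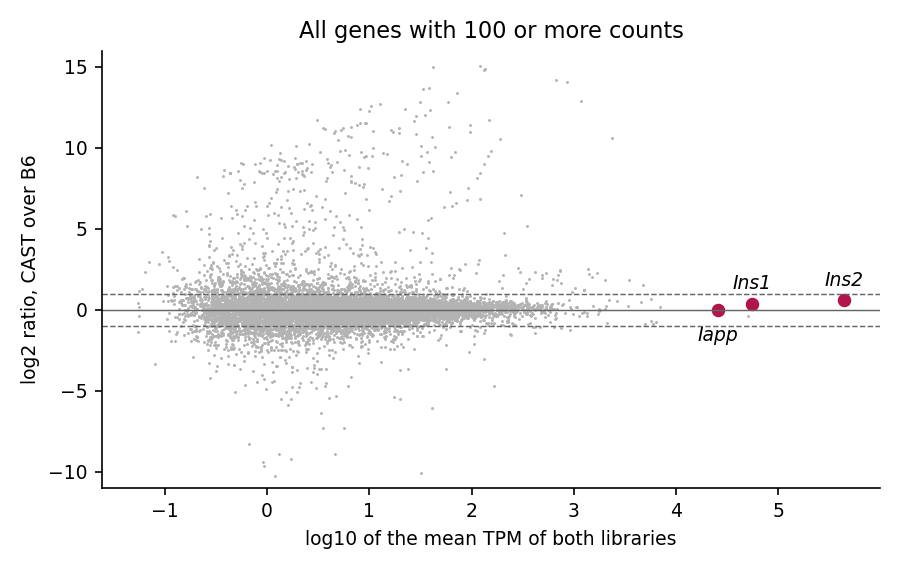
Log2 ratio of CAST over B6 (scaled counts) against the log10 mean TPM of both libraries, for the 14768 genes with 100 or more counts, with dashed lines at 2-fold. Ins2, Ins1 and Iapp lie at the right end, at 0.60, 0.37 and -0.013, all inside the dashed lines.

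Ratios between the genes within a library do not depend on how libraries are scaled. There were 10.8 Ins2 counts per Iapp count in CAST (10.79 to 10.83) and 7.08 in B6 (7.07 to 7.09), a difference of 1.53-fold. There were 3.06 Ins1 counts per Iapp count in CAST (3.05 to 3.06) and 2.34 in B6 (2.33 to 2.34), a difference of 1.31-fold. Both insulin genes were therefore higher relative to Iapp in the CAST library. Set against the summed counts of 10 markers of beta cells, the insulin cells, among them the transcription factor genes Pdx1, Mafa and Nkx6-1, the granule zinc transporter gene Slc30a8 and the peptide gene Ucn3, the log2 ratio was 0.58 for Ins2, 0.36 for Ins1 and -0.027 for Iapp. The markers themselves held 0.523% of counts in CAST and 0.577% in B6. They did not move together. The largest part of the sum was G6pc2, with 145794 of 545384 counts in CAST and 155224 of 442076 in B6 (log2 -0.38 in scaled counts). Of the 10 markers 8 had a lower ratio than Ins2, and Slc2a2 (0.63) and Trpm5 (0.74) had a higher one.

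Ins2 outweighed Ins1 in both libraries, and by more in CAST. The Ins2:Ins1 ratio was 8.63 by TPM in CAST (8.62 to 8.64) and 7.44 in B6 (7.43 to 7.45). By expected counts it was 3.54 in CAST (3.53 to 3.54) and 3.03 in B6 (3.03 to 3.03). The relative difference between the libraries was 1.16-fold by TPM and 1.17-fold by counts, whereas the ratios themselves differed more between the scales than between the strains. Ins1 thus made up 10.4% of insulin transcripts in CAST and 11.9% in B6 by TPM, but 22.05% and 24.8% of insulin counts.

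The scales differ by the lengths of the transcript models. Ins1-201, the only transcript of Ins1 with a value, is 1062 bases long in GENCODE M21, and Ins2-204, the main transcript of Ins2, is 455 bases long. The coding sequence takes 30.8% of Ins1-201 and 73.2% of Ins2-204. In the deposited values 94.2 counts made 1 TPM of Ins1-201 in CAST and 60.6 in B6, and 37.9 and 24.3 counts made 1 TPM of Ins2-204. Among the 8 Ins2 and Iapp transcripts in CAST and the 9 in B6 with at least 1000 counts, the counts per TPM followed the GENCODE lengths to within 0.57 bases. By the same relation the authors' Ins1 model had a length of 1017 bases in both libraries, which is not the length in GENCODE M21.

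Aligned to each other, Ins2-204 in its whole length matched bases 144 to 589 of Ins1-201, at 91.0% identity. The 143 bases of Ins1-201 before this stretch and the 473 after it, 58.0% of the model, had no counterpart in Ins2-204. The first AATAAA, the usual polyadenylation signal, after each stop codon is shown in capitals with the bases around it, because the models differ in how far they run on from it.
Ins2-204: ccctctgcaatgAATAAAacctttgaatga
Ins1-201: ccctctgcaatgAATAAAacttttgaataa
In Ins2-204 this signal, the only one after the stop codon, starts 33 bases after the stop codon and is followed by 13 bases, and in Ins1-201 it starts 34 bases after the stop codon and is followed by 486 bases. Ins1-201 has 2 AATAAA after its stop codon, and the other is followed by 37 bases. At the other end, the annotated first exon of Ins1-201 holds TATAAA, the letters of a TATA box, 21 bases before the first base that aligns to Ins2-204.
Ins1-201: ggtactttggacTATAAAgctggtgggcat
The letters describe the models only, and the deposited values do not say where along Ins1-201 the reads lie. When all counts of each gene were divided by the length of its aligned stretch (455 bases for Ins2 and 446 for Ins1), which places every Ins1 count in that stretch, the Ins2:Ins1 ratio was 3.47 in CAST and 2.97 in B6, and Ins1 made up 22.4% and 25.2% of insulin transcripts.

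**Figure D3:**
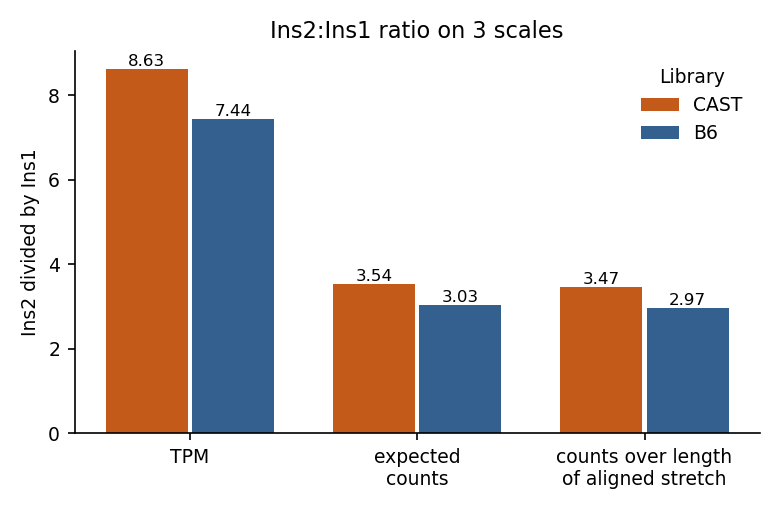
Ins2 divided by Ins1 within each library (CAST left of B6, 1 library each), from TPM, from expected counts and from whole-gene counts divided by the length of the stretch in which Ins2-204 and Ins1-201 align. CAST is above B6 on each of the 3 scales, and the TPM ratios of 8.63 and 7.44 stand apart from 3.54 and 3.03 by counts. The third scale is the count ratio times a fixed factor, so its comparison of CAST with B6 repeats that of counts.

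Values were given for 8 Ins2 transcripts; Ins2-209, whose most upstream exon (142743201 to 142743381) sets the annotated span of the gene, was not analysed here. Of the 8, Ins2-204 and Ins2-201 held 98.6% of Ins2 TPM in CAST and 98.1% in B6. Ins2-204 had 343414 TPM in CAST and 319668 TPM in B6, which is 71.9% and 79.0% of Ins2. Ins2-201 had 127771 TPM in CAST and 76899 TPM in B6, which is 26.7% and 19.01% of Ins2. The ratio of Ins2-201 to Ins2-204 was 0.372 in CAST and 0.241 in B6, a difference of 1.55-fold. Both have 333 coding bases with the stop codon. They differ in their 5' untranslated region, where exon 2 of Ins2-201 begins 12 bases earlier and exon 1 has 65 bases against 56 in Ins2-204. The 3' untranslated region has 54 bases in Ins2-201 and 52 in Ins2-204. The junction of exons 1 and 2 is shown for both, with the 12 bases in capitals.
Ins2-201: agcaggaagCCTATCTTCCAGgttattgtt
Ins2-204: tcagcaagcaggaaggttattgtttcaaca
In genome terms exon 2 of Ins2-201 spans 142679347 to 142679559 and that of Ins2-204 142679347 to 142679547. A minority of 50-base windows tell these transcripts apart. Of 429 windows of 50 bases in Ins2-201 70 were not in Ins2-204, and of 406 in Ins2-204 47 were not in Ins2-201. RSEM divides the remaining reads by its own estimate, and the error of that division was not analysed here.

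By scaled counts Ins2-201 was 2.12-fold higher in CAST (log2 ratio 1.08, 1.08 to 1.09), with 5136485 counts in CAST and 1982149 in B6. It was the only transcript of the 3 genes that was 2-fold apart in TMM-scaled counts. Of the 28944 transcripts with at least 100 counts 9.02% exceeded 2-fold towards CAST, so such a ratio was not rare. Shares of transcripts towards B6 or on other scales were not computed. With total counts Ins2-201 was 1.90-fold and by TPM 1.66-fold higher in CAST, so it did not reach 2-fold on these scales, whereas Iapp-202 was past 2-fold towards B6 by TPM (log2 -1.09). Ins2-204 was 1.37-fold higher, with 13013596 counts in CAST and 7764947 in B6 (log2 0.46, 0.45 to 0.46). The 6 other transcripts held 1.37% of Ins2 TPM in CAST and 1.94% in B6. Among them Ins2-205, which keeps the first intron in an exon of 352 bases, had 62255 counts in CAST and 74721 in B6 and was 1.47-fold higher in B6 (log2 -0.55, -0.57 to -0.54). Ins2-202, whose last exon of 351 bases begins inside the second intron, had 136330 counts in CAST and 107846 in B6 (log2 0.05, 0.04 to 0.06, and -0.11 with total counts and -0.30 by TPM). Ins2-203, whose last exon of 247 bases reaches less far into that intron, had 55721 counts in CAST and 26045 in B6 (log2 0.81, 0.79 to 0.83). The models that keep intron sequence thus spread over both directions. Ins2-206, which starts at a distant upstream exon (142699435 to 142699510), had 40678 counts in CAST and 25162 in B6 (log2 0.40). Ins2-208 and Ins2-207, short models, had 2745 and 216 counts in CAST and 1259 and 130 in B6.

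Iapp was read almost wholly from Iapp-201, the coding transcript of 839 bases, which had 1705849 counts in CAST and 1408454 in B6 and 99.8% and 99.7% of Iapp TPM. Iapp-202, a processed transcript of 294 bases that ends in an extended second exon, had 883 counts in CAST and 1213 in B6, which was 1.68-fold higher in B6 (log2 -0.75, -0.87 to -0.62). Iapp lies within the span of Slco1a5, an organic anion transporter gene on the opposite strand, with 0 exon bases in common. Slco1a5 had 206 counts in CAST and 141 in B6, beside the 1706731 and 1409667 of Iapp. Pyroxd1, the next gene on chromosome 6, had 1829 counts in CAST and 1523 in B6 and differed by log2 -0.02 (-0.12 to 0.07). Beside Ins2, the antisense gene Igf2os had 8 counts in CAST and 6 in B6, and the pseudogene Gm7290 had 3 and 2. The annotated neighbours of Ins1, a pair of long noncoding genes, were not analysed here.

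**Figure D4:**
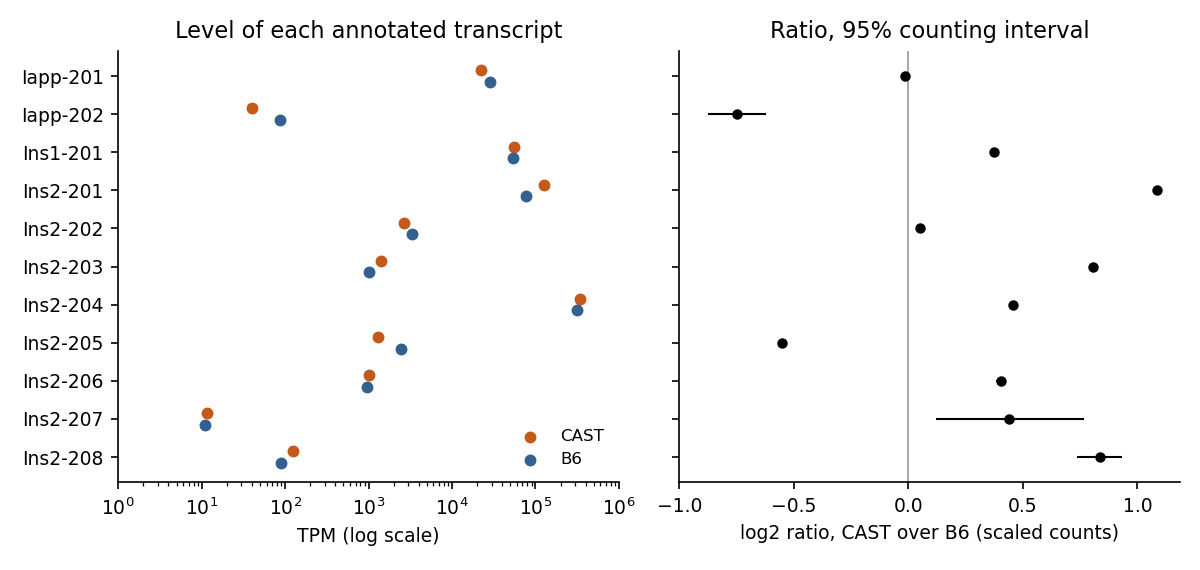
Level of the 11 transcripts of Iapp, Ins1 and Ins2 with values, in TPM on a log scale (left, 1 library per strain) and its log2 ratio of CAST over B6 from scaled counts with the 95% counting interval (right). Ins2-201 lies farthest right at 1.08, and Ins2-205 and Iapp-202 lie left of 0 at -0.55 and -0.75.

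The RefSeq promoter windows (GRCm38.p6, 250 bases before to 50 after the annotated start, forward strand) of Ins1 and Iapp are printed as a description of these beta cell genes. Ins2 had no entry. Capitals mark CATCTG, the core of an E-box bound by basic helix-loop-helix factors such as Neurod1 in insulin promoters, and TAAT, the core bound by homeodomain factors such as Pdx1, each on either strand (CAGATG and ATTA on the other strand).
Ins1, chr19:52264047-52264346: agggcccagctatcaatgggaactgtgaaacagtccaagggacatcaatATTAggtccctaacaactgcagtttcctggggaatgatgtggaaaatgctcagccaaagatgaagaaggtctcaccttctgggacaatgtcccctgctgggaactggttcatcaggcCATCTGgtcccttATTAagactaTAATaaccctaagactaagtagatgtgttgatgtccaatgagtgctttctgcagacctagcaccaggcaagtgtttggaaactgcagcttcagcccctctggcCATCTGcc
Iapp, chr6:142298175-142298474: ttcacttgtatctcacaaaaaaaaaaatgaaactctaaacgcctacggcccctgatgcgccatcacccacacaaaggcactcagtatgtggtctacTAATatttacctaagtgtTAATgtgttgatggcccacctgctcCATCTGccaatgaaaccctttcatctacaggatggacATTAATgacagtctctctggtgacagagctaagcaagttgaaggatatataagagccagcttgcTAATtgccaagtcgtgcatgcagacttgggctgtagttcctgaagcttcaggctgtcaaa
The Ins1 window held 2 copies of CATCTG and the Iapp window 1, where 17.2% of 32851 promoter windows held at least 1 and 1.83% at least 2. TAAT occurred 3 times in Ins1 and 5 times in Iapp, where 58.0% of windows held at least 1, 20.0% at least 3 and 6.86% at least 5. In Iapp a TAAT and an ATTA overlap. TATAAA, searched on both strands, was in neither window and in 13.6% of all windows. Only these exact letters were searched, and the Iapp window holds the close form TATATAA, so it is not shown to lack a TATA box. The TATAAA of Ins1-201 shown above begins at base 123 of that model, past the end of its window. The windows are of the B6 reference, and the CAST sequence was not analysed here, so the copies say nothing of a difference between the strains. The annotated start of Ins1 lies 143 bases before the stretch that aligns to Ins2-204, so the Ins1 and Iapp windows may not cover matching stretches. The second CATCTG of Ins1 lies after the annotated start, within the annotated first exon described above.

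Of 16 listed regulators of insulin transcription 4 had a log2 ratio above 0 and 12 below, with a median of -0.23, and 0 were 2-fold apart. Of all 17282 genes with at least 20 counts, the minimum used for the lists, 48.9% were below 0. In the same genes 9.15% were 2-fold higher in CAST and 8.14% in B6. The counting interval of Hnf4a, among the 12, included 0 (-0.13 to 0.01). Mafa, a beta cell activator of insulin transcription, had 18158 counts in CAST and 13014 in B6 (log2 0.19, 0.16 to 0.22), and by TPM its ratio was below 0, at -0.16. The lowest were Rfx6, a winged-helix factor of islet development, with 8520 counts in CAST and 13625 in B6 (log2 -0.97, -1.01 to -0.93), and Isl1, a LIM-homeodomain factor, with 11577 and 14627 (-0.63, -0.66 to -0.59). Pdx1, which binds the insulin and Iapp promoters, was at log2 -0.21 and Neurod1, which binds the insulin E-box, at -0.53. The list lay below the median of all genes with total counts (-0.39) and by TPM (-0.56) too.

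Genes that cut, amidate and store prohormones spread over both directions. Of 15 genes 5 were above 0 and 10 below, with a median log2 ratio of -0.20. At least 2-fold higher in CAST were 2 of them, Scg2 with 1584972 counts in CAST and 450672 in B6 (log2 1.53, 1.52 to 1.53) and Scg5, which encodes the chaperone of the convertase PC2, with 153568 and 49944 (1.33, 1.32 to 1.35), and 0 were 2-fold higher in B6. Of all genes with at least 20 counts 9.15% were 2-fold higher in CAST and 8.14% in B6. These calls depended on the scale. By TPM Scg5 was at 0.98 and Chga at -1.12, and with total counts Pam was at -1.08. The lowest were Pam, which amidates peptides including amylin, with 26983 counts in CAST and 41780 in B6 (log2 -0.92, -0.94 to -0.90), and Chga with 732767 and 1025152 (-0.77, -0.78 to -0.77). The proinsulin convertase genes Pcsk1 and Pcsk2 were at log2 -0.18 and -0.21 and the carboxypeptidase gene Cpe at 0.07. Cpe was below 0 with total counts (-0.084) and by TPM (-0.27), and all 3 enzymes were below the ratios of Ins2 and Ins1 in scaled counts.

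Genes of protein folding and import in the endoplasmic reticulum, through which proinsulin passes, had 18 of 20 listed symbols in the files. Ero1a and Ero1b were not found under these symbols, which does not show that the genes are absent, and Ero1l was measured. The median log2 ratio was 0.06, with 11 above 0, 7 below and 0 2-fold apart. Among all genes with at least 20 counts 9.15% were 2-fold higher in CAST and 8.14% in B6. The median was -0.10 with total counts and -0.31 by TPM, near that of all genes on each scale. The highest were Sdf2l1, a component of the chaperone complex, with 11645 counts in CAST and 5221 in B6 (log2 0.87, 0.82 to 0.92), and Prdx4, a peroxiredoxin that helps form disulfide bonds, with 2002 and 1088 (0.59, 0.48 to 0.70). The chaperone Hspa5 and the disulfide isomerase P4hb were at 0.30 and 0.35, and by TPM at -0.044 and 0.00080. The lowest were Srp54a, of the signal recognition particle, with 5628 counts in CAST and 7469 in B6 (log2 -0.70, -0.75 to -0.65), and Sil1, an exchange factor of Hspa5, with 4507 and 4740 (-0.36, -0.42 to -0.30).

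In a list of receptors, binding proteins and degrading enzymes of insulin and amylin, 17 of 20 genes were measured. The list also held related hormones, related receptors and insulin receptor substrates. Of the measured genes 8 were above 0 and 9 below, with a median log2 ratio of -0.01. Ramp1, which turns the calcitonin receptor into an amylin receptor, had 168 counts in CAST and 878 in B6 (log2 -2.67, -2.92 to -2.44), and the insulin receptor gene Insr had 2683 and 5788 (-1.40, -1.46 to -1.33). These 2 were at least 2-fold higher in B6. Calcr, the calcitonin receptor gene itself, was not measured, having under 20 counts over both libraries, and 2 of the 20 listed genes were at 0 counts in B6 and 0 genes in CAST. With at least 100 counts, the highest were Hspg2, which encodes the proteoglycan perlecan found in amyloid deposits, with 9728 counts in CAST and 5512 in B6 (log2 0.53, 0.48 to 0.58), and Ramp2 with 1045 and 617 (0.47, 0.33 to 0.62). At least 2-fold higher in CAST was 1 gene, Mme, which encodes the protease neprilysin and was named after its values were seen, with 31 counts in CAST and 1 in B6 (log2 4.10, 2.08 to 10.01, and 0.098 by TPM with 1 TPM added). The shares of all genes are the 9.15% and 8.14% given above. Ide, the insulin-degrading enzyme gene, was at log2 -0.06 (-0.13 to 0.01).

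**Figure D5:**
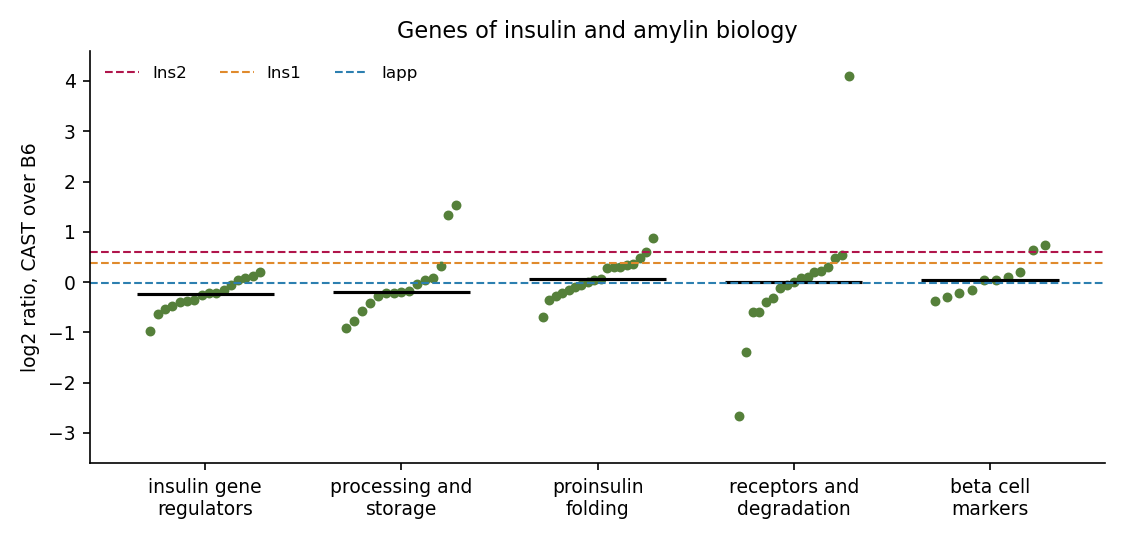
Log2 ratio of CAST over B6 (scaled counts) of each measured gene in 4 lists around insulin and amylin and in the beta cell marker list, with the median of each list as a black line and the ratios of Ins2, Ins1 and Iapp as dashed lines. The medians, from -0.23 to 0.06, lie under the lines of Ins2 at 0.60 and Ins1 at 0.37.

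The genes of at least 100 TPM in both libraries whose log2 ratio was nearest to that of each gene were listed as a measure of likeness over 2 libraries, which is a comparison of 1 number per gene. Of 479 such genes 43, Ins2 included, had a ratio at or above that of Ins2. Nearest to Ins2 were Resp18, an endocrine granule protein gene (log2 0.60), the ribosomal protein gene Rplp1 (0.59), Selenof (0.59), Tmem176b (0.62) and Gm10177 (0.57). Nearest to Ins1 were Akr1a1, Rpl41, Syp, which encodes the vesicle protein synaptophysin, and the mitochondrial gene mt-Nd4l with its nuclear copy Gm10222, all at 0.37 or 0.38; mt-Nd4l and Gm10222 had the same values, 13576 counts in CAST and 8584 in B6, so their reads cannot be told apart. Nearest to Iapp were Rps26, Nucb1, Rbm39, Rpl7 and Chchd2, between -0.019 and -0.0086.

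Markers of other cells of the islet preparation moved between the libraries as well. All 10 beta cell markers were measured, with a median log2 ratio of 0.04, from G6pc2 (-0.38) and Glp1r (-0.30) to Slc2a2 (0.63) and Trpm5 (0.74). Ins2 and Ins1 each had a higher ratio than 8 of these 10 markers and Iapp a higher one than 4. The 9 alpha cell markers summed to 3.77% of counts in CAST and 5.48% in B6, the 5 delta cell markers to 0.189% and 0.384%, and the 3 markers of PP and epsilon cells to 0.328% and 0.260%. The 20 acinar markers, from the exocrine pancreas, summed to 2.71% of counts in CAST and 0.836% in B6, and 18 were at least 2-fold higher in CAST. The sums for duct, endothelial, fibroblast and stellate, leukocyte and Schwann cell markers lay between 0.00156% and 0.0664% in either library. Within these small sums, 9 of 10 fibroblast and stellate markers were above 0 (median log2 ratio 0.99) and 5 were at least 2-fold higher in CAST, and 5 of 5 Schwann markers were above 0 (median 0.70) with 1 at least 2-fold higher. Of 8 duct markers 3 were at least 2-fold higher in CAST, up to Krt19 at 3.52, and 1 in B6. The alpha, the PP and epsilon and the endothelial lists each had 1 marker at least 2-fold higher in CAST. In the delta list 1 was 2-fold higher in B6, and in the beta and leukocyte lists 0 were 2-fold apart. Beside these counts, 9.15% of all genes with at least 20 counts were 2-fold higher in CAST and 8.14% in B6. In the 10 cell type lists 0 markers were at 0 counts in either library. The part of cell composition in the ratios of Ins2, Ins1 and Iapp was not tested.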

How the data were processed

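RNA of pancreatic islets was sequenced in 1 library per strain. Each deposited file holds 94545 Ensembl transcripts, belonging to 38924 genes. The authors' expected counts came from RSEM and GRCm38, per the submitters' processing notes. The authors also deposited a fraction for each transcript; these sum to 1 per file, were taken as RSEM's shares of all transcript molecules, and were multiplied by 1000000 to give TPM. Aligner, versions, annotation release, read length and strand setting were not given in the sources used here. If strand was not used, antisense reads cannot be told apart.

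Sums of expected counts over each gene's transcripts were rounded; of the gene IDs 37607 matched a symbol in GENCODE M21. Unmatched IDs held 0.172% of counts in CAST and 0.176% in B6. The log2 ratio is that of TMM-scaled counts with 0.5 added (edgeR 4.0.16, factors 0.947 for CAST and 1.06 for B6, R 4.3.3), for genes reaching 100 counts in the sum of both libraries and list genes reaching 20. Intervals (95%) are exact Clopper-Pearson intervals of the part of a gene's counts that came from CAST, or of a gene's part of a pair, for counting error only. With 1 library per strain no test was made. Alternatives were DESeq2 1.42.0 size factors, total counts, TPM with 1 added, other count minimums, main transcripts only and other denominators. Sequences came from GENCODE M21 transcripts and RefSeq promoters, aligned with Biopython 1.88. The ratio computation was tested on simulated data. Other software was Python 3.11.15 with scipy 1.17.1, numpy 2.4.6, matplotlib 3.10.9 and pandas 2.3.3.

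Named genes were Ins1, Ins2, Iapp and their transcripts, overlapping and flanking genes, the 10 genes of highest TPM per library, the 5 genes nearest to each in log2 ratio, and, in each list, the 2 genes at either end of the log2 ratio among those reaching 100 counts; most of the top 10 and the ends of the cell marker lists other than beta and Krt19 are not reported here. In the list of insulin gene regulators 1 gene that the rule names is not reported here. Mme, Calcr, Ide, Hnf4a, Pdx1, Neurod1, Pcsk1, Pcsk2, Cpe, Hspa5 and P4hb were added outside the rule for their known roles, with values in view. The members and lists were chosen with earlier results of these data known.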

Additional observations from a re-analysis of the deposited data

How the results depend on the processing

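No paired analysis was possible because each strain had 1 library, and for the same reason no replicate could be left out. The moves of single genes given here exceed the counting intervals, which may be too narrow, and say nothing of variation between mice. With DESeq2 size factors the log2 ratios of Ins2 and Ins1 were 0.60 and 0.38, and Iapp stayed within its interval. With total counts the ratios of Ins2, Ins1 and Iapp were 0.44, 0.22 and -0.17, and by TPM 0.24, 0.026 and -0.36. Relative to beta cell markers, an alternative added after seeing the data, they were 0.58, 0.36 and -0.027. Ins2-204 alone gave 0.46 for Ins2. The signs of the 3 ratios were the same under these alternatives. The Ins2:Ins1 ratio was 3.54 in CAST and 3.03 in B6 by counts, and 6.20 and 5.88 from the main transcripts. It was higher in CAST under both. With whole-gene counts over the length of the aligned stretch, also added after seeing the data, it was 3.47 and 2.97. That value is the count ratio times a fixed factor, so its direction had to be that of counts. The share of the 3 genes was 24.3% in CAST and 19.2% in B6 by counts. It was 59.0% and 51.5% of TPM without mitochondrial genes and the 20 listed acinar markers, which leaves other acinar genes in. By counts Ins2-201 held 27.8% of Ins2 in CAST and 19.9% in B6, and Ins2-204 70.5% and 77.8%.

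Over all genes, 1060 exceeded 2-fold towards CAST and 885 towards B6. With total counts 926 were higher in CAST and 1173 in B6, and by TPM 463 and 737. Under TMM scaling the numbers were 1581 and 1407 with at least 20 counts, and 3643 and 3240 with no filter. The share of 2-fold genes that were higher in CAST was 54.5% with TMM factors, 44.1% with total counts and 38.6% by TPM. The number of insulin gene regulators 2-fold apart was 1 with total counts and 1 by TPM, in place of 0, and of folding genes 1 by TPM, in place of 0. The processing and storage list had 3 genes 2-fold apart with total counts, in place of 2, and the receptor list 2 by TPM, in place of 3. Shares of all genes with at least 20 counts were not computed on these scales, so these list numbers have no matching background. Of the alternative values 34 lay outside, and 21 inside, the counting interval of a level, ratio or share or 1.5 times a count; the median over all genes, with no such limit, is counted as outside.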

Other observations

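Because Ins2, Ins1 and Iapp held 55.5% of transcripts in CAST and 48.8% in B6, the other 38921 genes shared 444540 TPM in CAST and 512458 TPM in B6. The median log2 ratio of CAST over B6 by TPM over 14765 other genes was -0.26. With TPM recomputed over the transcripts outside these 3 genes, an alternative added after seeing the data, the median was -0.11. The remaining difference from 0 was not tested for a cause.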
